A study of Mus musculus with 89 samples.

Results

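The border between a squamous cell carcinoma and the tissue around it was compared between tumours that had relapsed after immunotherapy and untreated tumours, in 35 of the 89 segments of a spatial RNA study in mice. Expression was read on a GeoMx instrument with a mouse whole transcriptome panel of 19962 targets, in which light frees sequencing tags from chosen areas of stained, fresh frozen sections. A segment is 1 such area, chosen by morphology, and all 89 carry the neutrophil label. The members were the segments that the authors' annotation places at the interface: 22 on the relapse slide and 13 on the naive slide, naive meaning before treatment. The immunotherapy agent, the strain, the age of the mice and the animals behind each segment are not named in the sources used here.

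Each stage was on 1 slide, plate G held every naive segment and plate H every relapse segment. The scan name of the naive slide carries the word HRass, the name of an oncogene, and that of the relapse slide carries DMBA, a chemical carcinogen. Stage, slide, plate and, by these names, the way the tumour arose cannot be told apart. The stage of the relapse slide was read from its location class and scan name; another column calls the same slide treated. Image positions placed the naive segments on 3 separate pieces of tissue (1, 4 and 8 segments) and the relapse segments on 3 (14, 7 and 1). Animals are not named. Segments of 1 tissue piece share that tissue, so the segments are not independent and the p-values over segments given here are too small. They measure only the spread between segments.

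Squamous carcinomas arise from keratinocytes, the cells of stratified skin. Keratins are the filament proteins of these cells and work in pairs of a type II and a type I chain: Krt5 with Krt14 in the dividing basal layer, and Krt6a or Krt6b with Krt16 or Krt17 in hair follicles, wounds and tumours. Ighm encodes the heavy chain of immunoglobulin M, Igkc the kappa light chain and Jchain the joining chain of secreted polymeric antibody, all made by plasma cells. Neutrophils are short-lived white blood cells that carry much S100a8 and S100a9 protein and little RNA.

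Keratin genes and antibody genes were the largest differences between the stages. Fitted differences on the log2 scale were 3.51 for Krt5, 3.34 for Krt6a, 3.69 for Krt16 and 4.67 for Ighm, all higher in relapse. The keratinocyte genes Krt14, Krt6b and Krt17, the fatty acid binding protein gene Fabp5 and the pseudogene Erdr1 rose with them, as did Igkc. Collagen, major histocompatibility and neutrophil genes did not pass the test at the interface.

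The relapse segments were much shallower. Depth was summed over the counts that exceed 1, the lowest count among the deposited values, called the floor here. It had a median of 18307 in naive (5831 to 66166) and 3570 in relapse (573 to 14294). Mean log2 depth was lower by -2.39 in relapse (two-sided permutation test, p = 1e-05, the smallest that 100000 permutations can give). Means per tissue piece, 3 against 3, gave -1.51 (exact permutation p = 0.2, where the smallest possible is 0.1). Relapse segments held fewer nuclei (median 54.5 against 80) and fewer counts per nucleus (63.8 against 238). A median of 528 targets per relapse segment and 2971 per naive segment exceeded the limit of quantitation, the larger of 2 counts and a bound set by the negative probes. A median of 90.0% of targets per relapse segment lay at the floor, against 57.1% in naive, so a fall in relapse could seldom be measured. In bulk segments, fewer cells of a type and less RNA per cell cannot be told apart.

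The comparison was therefore fitted with log2 depth as a covariate, with limma on log2(deposited signal + 1). A total of 5894 of 19962 targets were tested, those above the limit of quantitation in at least 10% of the 35 segments. Of these, 4665 passed only through naive segments and 131 only through relapse segments. After Benjamini-Hochberg adjustment 81 targets were called at 0.05, which is 1.37% of those tested, all higher in relapse and none lower (847 had an unadjusted p under 0.05). Of the 81, 23 exceeded the limit in under 10% of naive segments, Krt5, Dsp and Krt13 among them, so they entered the test through relapse, where they are high. The median log2 difference of all tested targets was 0.19, and differences are read against that value. The floor itself was a larger deposited signal in relapse, with a median of 3.74 against 1.87 in naive. Before the depth covariate, a target at the floor everywhere thus has a higher signal in relapse. The part of this offset in the calls was not tested. The split changed when scaling and covariate were changed together: after rescaling to the same total without the depth covariate, 29 of 509 calls were higher and 480 lower, with a median of -0.27. Without the covariate and with no rescaling 546 of 572 calls were higher. With the rescaling and the covariate 7 of 9 were. Of those 7, 5 were keratins (Krt5, Krt14, Krt6a, Krt6b and Krt16) and the other two were Ighm and Igkc.

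Depth ranges overlapped between 5831 and 14294 counts, which held 6 naive and 7 relapse segments of similar depth (medians 10691.5 and 8218). This set was chosen after the data were seen. In it 9 targets were called by limma, 0.153% of those tested, all higher in relapse and all among the 81. They were Ighm (4.54), Igkc (4.27), Krt16 (3.23), Krt5 (2.79), Krt6a (2.70), Krt6b (2.62), Krt14 (2.07), Erdr1 (2.05) and Krt17 (1.89). Thinning each segment to 1000 counts, which left out 2 relapse segments, gave 14 calls among 1033 targets (1.36%), 10 of them shared with the 81.

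1 naive segment stood apart from the other 12. The only interface segment of naive piece 1 had 166 counts of Col1a1 per 10000 counts of its depth, 82.5 of Col3a1, 120 of Apoe and 45.3 of B2m. The highest values among the other 12 were 20.1, 5.64, 2.16 and 2.19. It was also the highest naive segment for Krt5, Krt6a, Krt6b, Krt14 and Krt16. Without it limma called 249 targets, and the differences were 3.84 for Krt5, 3.98 for Krt6a, 4.14 for Krt16 and 4.95 for Ighm. The 8 segments of naive piece 5 weighed most: without them limma called 3 targets, Krt5 (3.23, adjusted p = 0.0202), Krt16 (3.24, adjusted p = 0.0262) and Ighm (4.73, adjusted p = 0.0461). Krt6a then had 2.94 (adjusted p = 0.0886) and Igkc an adjusted p of 0.0566.

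Among the basal keratins, Krt5 had 0 counts above the floor in 9 of 13 naive segments and at most 2 (median 0). In relapse it had 0 to 18 counts with a median of 8.0, and 20 of 22 segments had at least 1. As a share, Krt5 ran from 0 to 1.62 per 10000 in naive and from 0 to 53.8 in relapse, with a relapse median of 17.8. The relapse share exceeded the highest naive share in 19 of 22 segments. The other 3 relapse segments overlapped with naive: both segments under 1000 counts had none, and the single segment of relapse piece 4 had 1 count.

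The deposited signal of Krt5 was 2.44 ± 1.72 (SD, n = 13) in naive and 30.6 ± 16.7 (SD, n = 22) in relapse. Signal values include the floor, with a median of 1.87 in naive and 3.74 in relapse. The fitted difference on the log2 scale was 3.51 (SE 0.42, adjusted p = 1.18e-09, limma). The mean share differed by 20.3 per 10000 (two-sided permutation test over segments, adjusted p = 8e-05 over the 4 markers). The 4 markers were chosen with earlier results of these data known, so this test adds no support to the fit. The same holds for the permutation tests of the other markers below. Pooled over segments the share was 17.03 per 10000 in relapse, from 173 counts, and 0.160 in naive, from 5 counts. That is a ratio of 106 with an exact 95% interval of 44.7 to 331, which covers counting error only.

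Krt14, the partner of Krt5, was already measurable in untreated tumours. Its share had a median of 2.68 per 10000 (0 to 17.8) in naive and 47.3 (0 to 128) in relapse, and 15 of 22 relapse segments lay above all naive ones. The fitted difference was 3.14 (SE 0.52, adjusted p = 1.79e-05, limma). Of the 15 members of the basal keratinocyte list 6 were tested, 3 of them through naive segments alone, which leaves little room to measure a difference. None but Krt5 and Krt14 passed: Itgb1, an integrin, had 0.56, Lamb3, a basement membrane laminin, 0.34, Krt15 0.09 and Cdh3, P-cadherin, -0.03.

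Krt5 lies on mouse chromosome 15 (101707069 to 101712905 in RefSeq's GRCm38.p6) beside Krt6a and Krt6b, and Krt14, Krt16 and Krt17 lie together on chromosome 11, the type II and type I keratin clusters. The 250 bases before the annotated start of Krt5, the marker nearest to absent in untreated segments, are shown as the window that RefSeq's promoter table holds for a marker. RefSeq places them on the minus strand at chr15:101712906-101713155.
Krt5 promoter: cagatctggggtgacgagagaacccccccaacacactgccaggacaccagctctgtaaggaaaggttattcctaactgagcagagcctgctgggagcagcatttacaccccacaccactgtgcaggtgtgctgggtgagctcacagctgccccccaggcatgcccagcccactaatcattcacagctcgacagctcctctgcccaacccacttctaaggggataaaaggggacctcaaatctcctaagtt
No part is in capitals: neither the AP-1 motif TGANTCA nor the TATA box TATAAA, searched on both strands, is in the 300 bases that run from there to 50 bases past the start. Of the 32851 promoter windows of that length, 7.81% hold the first and 13.6% the second. Only these exact letters were searched. Near matches to the TATA box, such as the ataaaa close to the end of the printed sequence, were not counted.

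**Figure D1:**
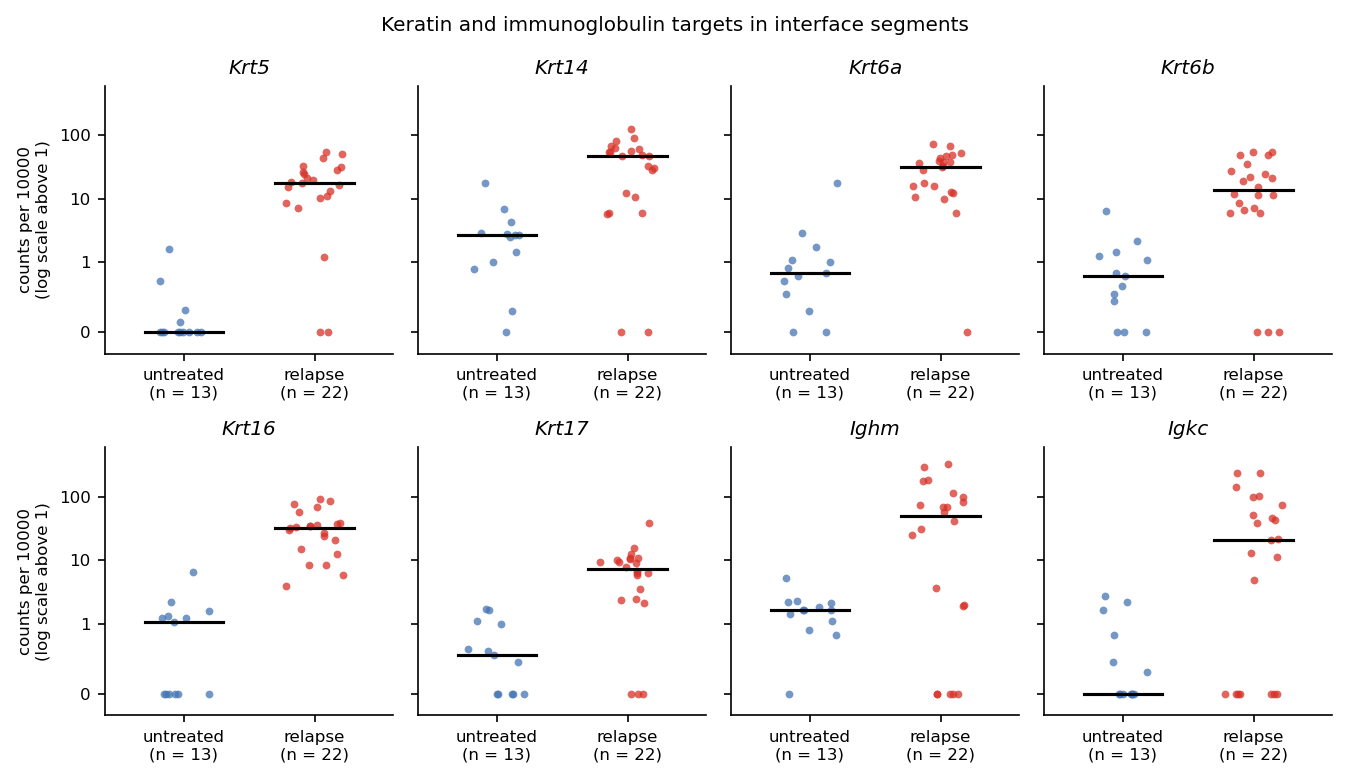
Counts per 10000 counts of depth in each interface segment (points, logarithmic axis above 1) for 8 targets, in 13 untreated (naive) and 22 relapse segments, with the median as a bar. The median of Krt5 is 0 in untreated and 17.8 in relapse segments, and for Ighm 5 relapse segments lie at 0 while the highest reaches 328.

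Keratins that keratinocytes switch on in wounds and tumours rose together. Of the 9 members of the stress keratin list 8 were tested and 4 passed, all higher: Krt16, Krt6a, Krt6b and Krt17. The median difference of the 8 was 1.56, beside 0.19 for all tested targets, of which 1.37% were called. Members that are not keratins had smaller values and did not pass: Sprr1b 0.96, Sprr2h 0.79 and Sprr2d 0.29, cornified envelope proteins, and S100a7a -0.11.

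Krt16 was above the floor in 22 of 22 relapse segments, with 1 to 39 counts (median 13), and in 7 of 13 naive segments, with 0 to 10 counts (median 1.0). Its share was 32.6 per 10000 in the median relapse segment (3.95 to 90.7) and 1.06 in the median naive one (0 to 6.47), and 20 of 22 relapse segments exceeded every naive one. The deposited signal was 51 ± 37.3 (SD, n = 22) against 5.51 ± 4.80 (SD, n = 13). The difference was 3.69 (SE 0.46, adjusted p = 5.78e-09, limma), and in the share 34.4 per 10000 (permutation test, adjusted p = 8e-05 over the 4 markers).

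Krt6a had 0 to 27 counts in relapse (median 14.5) and 0 to 11 in naive (median 2.0). Its share was 32.01 per 10000 in the median relapse segment (0 to 73.9) and 0.839 in the median naive one (0 to 17.8). The groups overlapped more here, with 13 of 22 relapse segments above the highest naive one, the segment of naive piece 1 described above. The deposited signal was 48.5 ± 33.7 (SD, n = 22) against 7.57 ± 11.4 (SD, n = 13), the difference 3.34 (SE 0.48, adjusted p = 3.15e-07, limma), and the share differed by 28.7 per 10000 (permutation test, adjusted p = 8e-05).

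Krt6b, a close copy of Krt6a on the same chromosome, had a difference of 3.18 (SE 0.45, adjusted p = 2.52e-07, limma). The tags of such near-identical genes may read both, so the 2 values are not independent. Krt17 rose by 2.17 (SE 0.36, adjusted p = 2.56e-05, limma), with 0 to 10 counts in relapse and 0 to 4 in naive.

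Summed, the 6 keratins took 1.40% of the counts of the median relapse segment (139.8 per 10000, from 24.4 to 403) and 0.0497% of the median naive segment (4.97 per 10000, from 1.64 to 51.7). No segment of either group was without a keratin count. In 20 of 22 relapse segments the sum exceeded that of every naive segment. For comparison, the 14 naive segments annotated within the tumour had a median of 10.6 per 10000 and ranged from 0 to 201, so single untreated segments inside the tumour reached the level of relapse interface segments. The 2 acute interface segments had 2.98 and 14.1.

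The authors' tags of a segment name cancer beside neutrophils in 13 of 22 relapse and 4 of 13 naive interface segments. Krt5 was high with either tag: the relapse median was 16.6 per 10000 in the 13 segments with the cancer tag and 24.9 in the 9 without, and the naive medians were 0.523 and 0. With the tag as a covariate, chosen after the data were seen, 12 targets were called and the differences were 3.21 for Krt5, 2.86 for Krt6a, 3.43 for Krt16 and 4.17 for Ighm.

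Genes of keratinocyte differentiation and cell junctions moved less. Of 26 members 18 were tested and 4 passed, all higher, with a median of 0.64 for the 18. Among all tested targets 1.37% were called and the median was 0.19. Dsp, desmoplakin of the desmosome, rose by 1.42 (adjusted p = 0.00115, limma), Krtdap, a marker of differentiating keratinocytes, by 1.2, Krt13 by 1.04 and Dsc2, a desmosomal cadherin, by 0.99. These rest on few counts: Dsp had at most 1 count in any naive and at most 5 in any relapse segment. Krt1 and Krt10, keratins of the layers above the basal one, had values of 0.80 and -0.31 and did not pass, nor did Cdh1, E-cadherin, at 0.06. None of the 4 passed in the segments of overlapping depth, and Dsp alone did with tissue piece as a random block (1.38, adjusted p = 0.00852, limma).

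**Figure D2:**
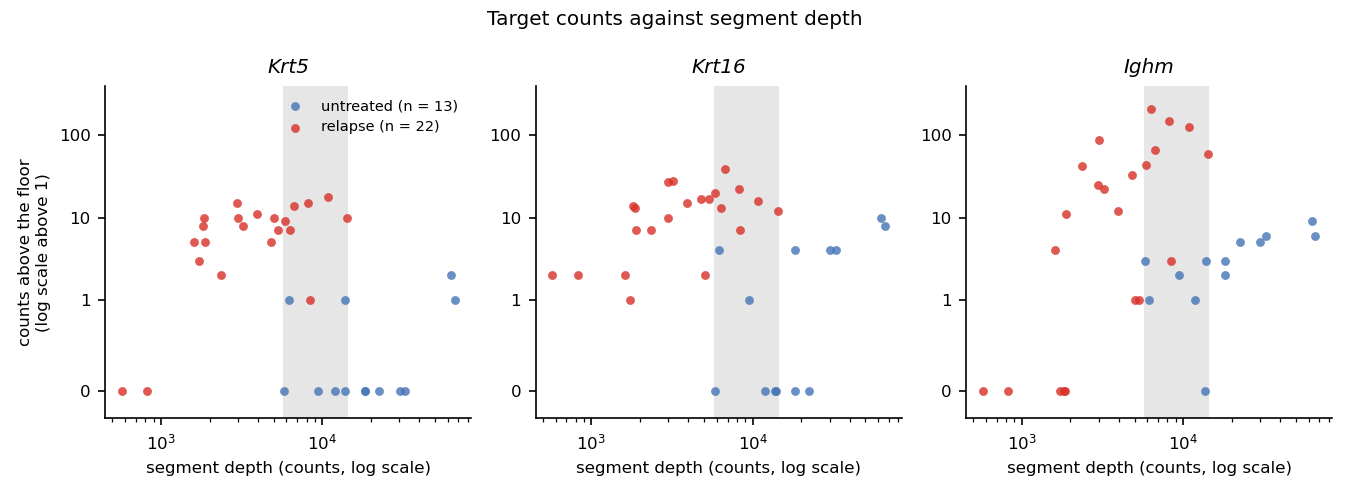
Counts above the floor (vertical axis, logarithmic above 1) against depth (horizontal, logarithmic) for Krt5, Krt16 and Ighm in the 13 untreated and 22 relapse interface segments; grey marks depths from 5831 to 14294, where both stages have segments. In the grey range the relapse segments lie above the untreated ones for Krt5 and Krt16, except 1 relapse segment with a single Krt5 count.

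Antibody transcripts were high in many relapse segments and not in others. Ighm had 0 to 208 counts in relapse (median 17), with 5 of 22 segments at the floor, and 0 to 9 in naive (median 3.0). Those 5 segments were shallow, with 573 to 1857 counts of depth. At 573 counts a count of 0 allows up to 52.4 per 10000, so these zeros do not show absence. The Ighm share ran from 0 to 328 per 10000 in relapse (median 50.3) and from 0 to 5.14 in naive (median 1.64), and 14 of 22 relapse segments exceeded all naive ones. The deposited signal was 140.0 ± 198.6 (SD, n = 22) against 6.97 ± 3.05 (SD, n = 13). The difference was 4.67 (SE 0.61, adjusted p = 2.15e-08, limma), and in the share 73.8 per 10000 (permutation test, adjusted p = 0.00551 over the 4 markers).

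Igkc showed the same uneven pattern, with 0 to 150 counts in relapse (15 of 22 segments above the floor) and 0 to 17 in naive (6 of 13). Its difference was 4.47 (SE 0.59, adjusted p = 2.26e-08, limma). Jchain was present at 0 to 3 counts per segment in both stages, with a difference of 1.38 (adjusted p = 0.00348, limma) that did not pass at overlapping depth (1.44, adjusted p = 0.169). Of the 12 immunoglobulin and plasma cell genes on the panel 8 were tested, and these 3 were called, all higher. The median of the 8 was 0.65, beside 0.19 for all tested targets, of which 1.37% were called. Igha, the heavy chain of immunoglobulin A, had 0.50, the secretory regulator Xbp1 0.80 and Irf4 0.27, none past the test. All 8 had values above 0, but 4 of them passed the filter only through naive segments. Mzb1, another member of the list, went the other way, with 11 counts in all naive and 0 in all relapse segments. Its pooled relapse share over the naive share was 0 (exact 95% interval 0 to 1.22, counting error only).

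B cell genes were too low in single relapse segments to compare. Of 12 members 2 were tested, both through naive segments alone: Cd79b at -0.17 and Ms4a1, which encodes CD20, at 0.14. Cd79b, part of the B cell receptor, had 1 count in all 22 relapse segments together and 28 in the 13 naive ones. Pooled over segments, the relapse share over the naive share was 0.110 for Cd79b (exact 95% interval 0.00268 to 0.664). For Ms4a1 it was 0.559 (0.140 to 1.64), and both intervals cover counting error only. The summed list had a median of 0 per 10000 in relapse (0 to 10.4) and 3.57 in naive (1.62 to 6.96), against 6.01 for an equal share per target. A count of 0 in 1 segment of the median relapse depth allows up to 8.40 per 10000, so the naive level was not measurable in such a segment.

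Within the largest piece the antibody level divided by position, a split noticed after the values were seen. In relapse piece 1, the 6 segments on the left of the image had 0 to 24.9 Ighm per 10000 (median 0), and the 8 on the right had 68.3 to 328 (median 139), with no overlap. Depth divided with it, from 573 to 5058 on the left (median 1667) and from 2353 to 8218 on the right (median 5333), and its part in the split was not tested. The deepest segment on the left, with 5058 counts, had 1 count of Ighm. All 6 on the left were thus shallower than the range of overlapping depth, which starts at 5831. Igkc overlapped, with 0 to 74.8 and 20.8 to 237 per 10000.

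Keratins other than Krt5 and Krt17 had higher medians on the right too, with overlapping ranges. Krt14 had a median of 5.86 per 10000 on the left (0 to 60.4) and 55.2 on the right (28.4 to 90.1). The medians were 14.9 and 37.6 for Krt6a, 2.97 and 23.2 for Krt6b, and 18.4 and 33.8 for Krt16. Krt5 had 18.6 (0 to 43.9) and 16.8 (8.50 to 33.3), and Krt17 6.85 and 6.26. In relapse piece 3 Ighm ran from 0 to 125 counts over 7 segments, and the single segment of piece 4 had 3. Without piece 1 limma called 9 targets, and the Ighm difference was 2.85 (adjusted p = 2.56e-07).

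Keratin and antibody levels were not confined to the same segments. Of 22 relapse segments, 14 exceeded every naive segment in the sum of the 6 keratins and in the sum of Ighm, Igkc and Jchain. Another 6 did so for keratins alone, 1 for the antibody genes alone, and 1 for neither. The antibody sum had a median of 94.5 per 10000 in relapse (0 to 570), with 5 segments at 0, and of 2.32 in naive (0.727 to 5.14). The 5 at 0 were the shallow segments without an Ighm count. The 2 acute interface segments had antibody sums of 72.5 and 180, so a high antibody level was measured there beside a low keratin level.

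**Figure D3:**
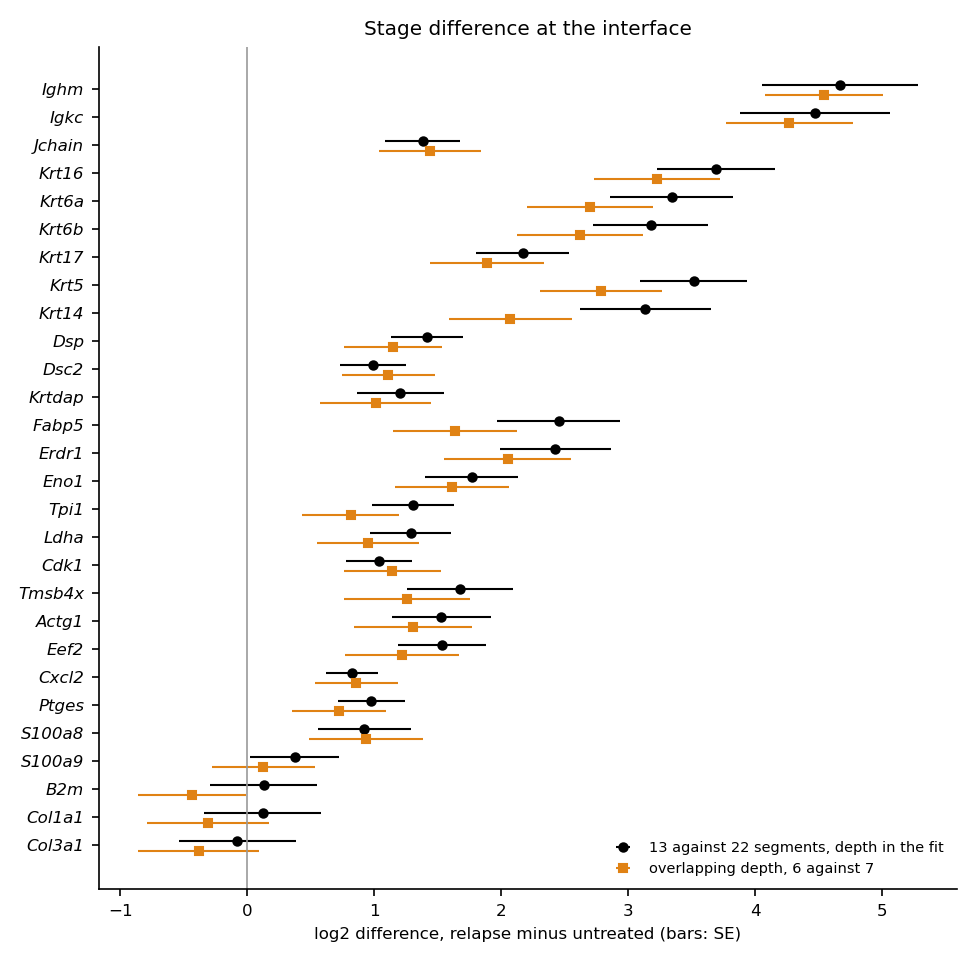
Log2 difference, relapse minus untreated, with its SE as a bar, for 28 targets: circles from all 35 interface segments with depth in the fit, squares from the 6 untreated and 7 relapse segments of overlapping depth. Ighm, Igkc and Krt16 stand furthest right in both, while S100a9, B2m, Col1a1 and Col3a1 lie near 0.

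Fabp5, which binds fatty acids in keratinocytes, rose by 2.45 (SE 0.49, adjusted p = 0.00115, limma), from a median share of 2.18 per 10000 in naive (0.892 to 30.7) to 31.1 in relapse (0 to 57.1). At overlapping depth its difference was 1.63 (adjusted p = 0.367, limma). Erdr1, annotated as a transcribed pseudogene on the X chromosome, rose by 2.42 (adjusted p = 0.000141, limma), and 20 of 22 relapse segments exceeded every naive one.

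Some enzymes of glycolysis, which splits glucose for energy, were called. Of all 5894 tested targets 81 were called (1.37%), and the median difference of all tested targets was 0.19. Of 18 glycolysis and hypoxia genes 13 were tested and 3 passed, all higher: Eno1 (1.77), Tpi1 (1.30) and Ldha (1.29), beside a median of 0.41 for the 13. Gapdh had 1.24 (adjusted p = 0.118, limma) and Pkm 0.61, and neither passed. Translation and housekeeping genes gave 3 calls of 15 tested, all higher and with a median of 0.89: Tmsb4x, which binds actin monomers (1.68), Eef2, an elongation factor (1.53), and Actg1 (1.53). Ribosomal protein genes gave 5 calls of 77 tested, with a median of 0.55, among them Rpl4 (1.43) and Rps10 (1.32). Cdk1, a driver of cell division, was the single call among 8 tested proliferation genes, at 1.04. None of these passed at overlapping depth. With tissue piece as a random block Eno1 (1.73, adjusted p = 0.0128) and Eef2 (1.52, adjusted p = 0.0295, limma) kept their calls, and Tpi1, Ldha, Tmsb4x, Actg1, Cdk1 and every ribosomal protein gene lost theirs.

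The share of counts on targets foreign to the tissue also differed between the stages. Olfactory and vomeronasal receptors, 1116 panel targets that skin has little reason to express, took 580 per 10000 in the median naive segment (343 to 664) and 469 in the median relapse segment (329 to 572), where an equal share per target would be 559. The 82 ribosomal protein genes took 192 (133 to 320) and 400.4 (167 to 571). The part of these shares in the calls was not tested. The receptor list itself had 0 of 423 tested targets called and a median difference of 0.19, that of all tested targets.

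The neutrophil label was weakly borne out by markers in both stages. Of 24 neutrophil genes 5 were tested and none passed. Among them S100a8 had 0.92 (adjusted p = 0.202, limma), S100a9 0.37, Trem1 0.05 and Fcgr3 -0.05. S100a8 had 0 to 6 counts in relapse (median 1.0) and 0 to 7 in naive (median 4.0). Ly6g, which defines mouse neutrophils, exceeded the limit of quantitation in 3 of 13 naive and 0 of 22 relapse segments. The 24 genes together took 10.9 per 10000 in the median naive segment (5.87 to 14.6) and 13.5 in relapse (4.25 to 53.8), against 12.02 for an equal share per target. Of 14 tumour-associated neutrophil genes 3 were tested and of 21 interferon response genes 6, and none passed.

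Of the genes that signal to neutrophils or make lipid mediators, Cxcl2, a chemokine that attracts neutrophils, was called at 0.83 and Ptges, which makes prostaglandin E2, at 0.98. Both were at the floor in most segments: Cxcl2 had 6 counts in all naive and 7 in all relapse segments. The floor had the higher deposited value in relapse, and its part in these calls was not tested. Of 9 tested chemokine and cytokine genes and 6 tested stem cell and lipid genes these were the only calls. Among all tested targets 1.37% were called. Neither passed at overlapping depth (adjusted p = 0.777 and 0.797, limma) or with tissue piece as a random block.

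Lists of other cell types were looked at in the same way. Of the macrophage genes, Apoe had 1.06 (adjusted p = 0.316, limma), or 2.10 (adjusted p = 0.000406) without naive piece 1. Adgre1 had -0.36. None passed among 17 fibroblast, 7 class I and 6 class II histocompatibility, 6 skeletal muscle, 4 adipocyte, 2 erythroid, 2 T and natural killer cell genes, and 1 endothelial gene tested. The median of the fibroblast list was 0.24, with Col1a1 at 0.12 and Col3a1 at -0.08. Without naive piece 1 Col1a1 had 0.81 (adjusted p = 0.284, limma).

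**Figure D4:**
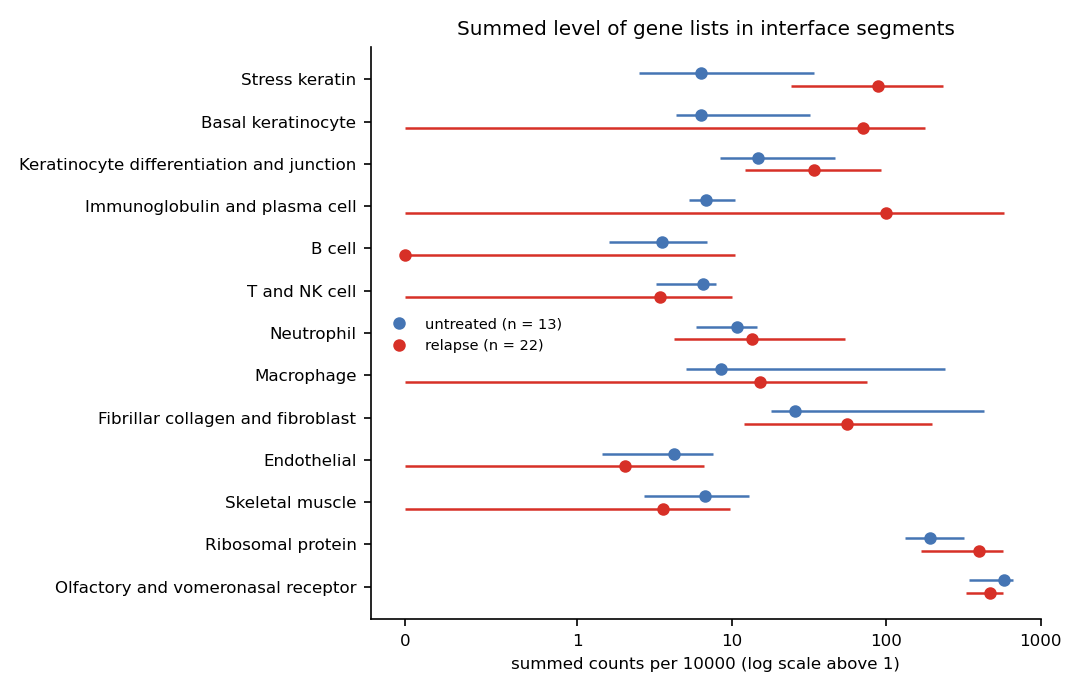
Summed counts per 10000 of 13 gene lists in interface segments (logarithmic axis above 1): dots are medians and lines run from the lowest to the highest segment, for 13 untreated and 22 relapse segments. Stress keratins have a median of 6.35 in untreated and 88.04 in relapse segments, and the neutrophil list has 10.9 and 13.5.

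Whether the stage difference was particular to the interface was tested against stroma, with 15 naive and 14 relapse stroma segments on the same slides and plates. Keratins and Ighm were also higher in relapse stroma: Krt5 by 1.36 (adjusted p = 0.0322), Krt6a by 1.77 (adjusted p = 0.00346), Krt16 by 1.80 (adjusted p = 0.00279) and Ighm by 3.68 (adjusted p = 2.74e-07, limma). Krt14 (2.03), Krt6b (1.86), Krt17 (1.08), Igkc (2.22) and Fabp5 (1.47) were called higher in stroma too. Summed, Ighm, Igkc and Jchain had a median of 1.872 per 10000 in naive stroma (0 to 300.6) and 17.89 in relapse stroma (0 to 909.6). The highest naive stroma segment thus lay far above the relapse stroma median. Igkc alone reached 259.6 per 10000 in naive stroma (median 0), while Ighm reached at most 3.201 there. In stroma 53 targets were called, 0.899% of those tested, 12 higher (0.204%) and 41 lower. Of the 53, 9 were among the 81 called at the interface.

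The interaction term, the interface difference minus the stroma difference, was called for 81 of 5894 targets (1.37%), 79 above 0 and 2 below. It was 1.97 for Krt5 (SE 0.46, adjusted p = 0.0073, limma), so Krt5 rose more at the interface, but without naive piece 1 it was 1.59 (adjusted p = 0.0702) and without naive piece 5 1.79 (adjusted p = 0.218). For Krt16 it was 1.59 (adjusted p = 0.0841), for Krt6a 1.33 (adjusted p = 0.202) and for Ighm -0.07 (SE 0.67, adjusted p = 0.982, limma), none past the threshold. At overlapping depth no interaction was called by limma (381 at an unadjusted p under 0.05, smallest adjusted p 0.0533).

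The largest interactions came from genes that were lower in relapse stroma and not at the interface. Apoe, a lipid carrier abundant in macrophages, had an interaction of 3.65 (adjusted p = 0.00019): its difference was -2.65 in stroma and 1.01 at the interface. Col3a1 had an interaction of 3.08, with -3.09 in stroma and -0.02 at the interface, and Col1a1 had 2.76, with -2.86 and -0.10. The median share of Col1a1 was 84.3 per 10000 in naive stroma and 8.40 in relapse stroma, and 8.57 in naive and 21.6 in relapse interface. Col1a2 (2.46) and B2m (2.44), the light chain of class I molecules, followed. Without naive piece 5 neither these nor Krt5 passed: 2 targets did, Hp (2.50), haptoglobin, and Lmna (1.83), a nuclear lamin.

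**Figure D5:**
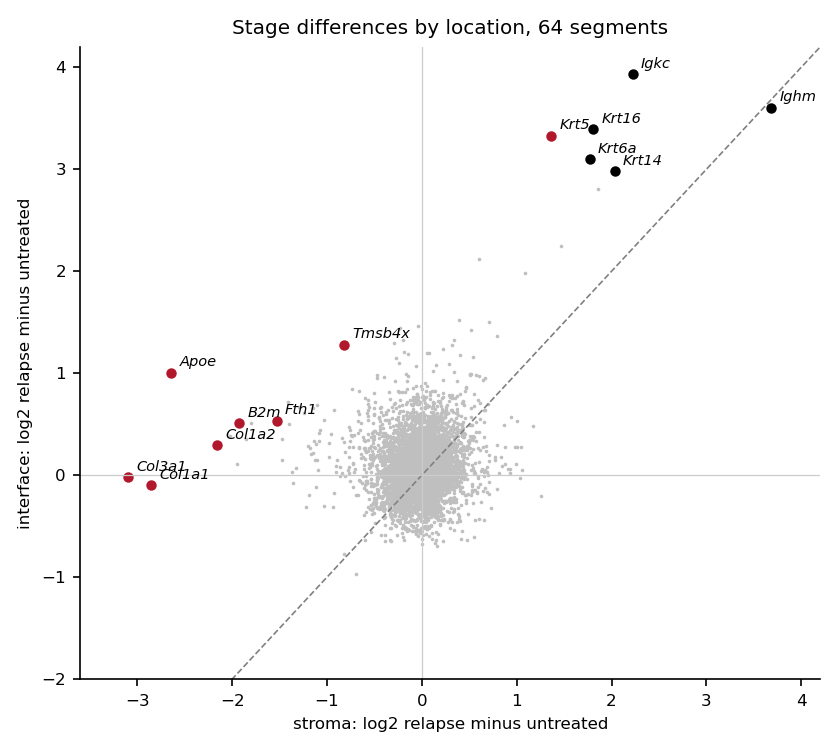
Log2 difference, relapse minus untreated, in stroma (horizontal) and at the interface (vertical) for 5894 targets, both from 1 fit of 64 segments; the dashed line marks equal differences and red marks named targets whose interaction passed 0.05. Ighm lies near the line, Krt5 above it, and Col1a1, Col3a1 and Apoe lie left of 0 on the stroma axis only.

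Plates could be compared only in acute stroma, where plate G held 4 segments and plate H held 5. Plate H minus plate G gave 0 calls by limma (438 at an unadjusted p under 0.05), and the 4 markers differed by -0.43 to -0.30 with SEs of 0.50 to 0.65, within their error. With plate as a covariate over all segments 4 targets were called, among them Krt5 (3.37, adjusted p = 0.0223) and Krt16 (3.56, adjusted p = 0.0223). Ighm (4.23, adjusted p = 0.13, limma) and Krt6a (2.91, adjusted p = 0.306, limma) did not pass. With 1 mean per tissue piece, 3 against 3, and no depth covariate, limma called 0 targets (249 at an unadjusted p under 0.05, smallest adjusted p 0.707). The differences were 2.17 for Krt5, 1.63 for Krt6a, 2.28 for Krt16 and 2.10 for Ighm. With the depth covariate they were 0.74, -0.36, 1.07 and 1.31, again with 0 calls by limma (444 at an unadjusted p under 0.05).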

How the data were processed

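GeoMx tag signal was analysed for 35 interface segments and, for the comparison with stroma, for 64. The values the authors deposited are normalised signal. They are counts divided by 1 ratio per segment, the deposited upper-quartile factor, as checked on the values. Signal times factor gave whole counts for 99.9858% of values (tolerance 1e-06), with 1 count as the floor. Per the submitters' processing notes the build was mm10 and Seurat was used. The aligner and counter are not given in the sources used here.

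Stage and location came from the authors' annotation. Depth is the sum of counts above the floor. Differences were fitted with limma 3.58.1 (R 4.3.3) on log2(signal + 1), with log2 depth as covariate. Fold changes on this scale understate those of low targets. Targets above the limit of quantitation in 10% of the 35 segments were tested, and adjusted p-values under 0.05 were called. The interaction used 1 fit of naive and relapse interface and stroma. Scripts were tested on simulated data. Permutation tests used numpy 2.4.6, exact intervals scipy 1.17.1, and tables pandas 2.3.3 (Python 3.11.15).

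Named targets were the 4 markers, the 12 largest called differences in each direction among targets above the median level, up to 6 called members and the 3 most abundant members of each gene list, and the 5 largest called interactions in each direction. Others named in the text were chosen after their values were seen. The members and lists were chosen with earlier results of these data known. Alternatives changed the scaling, filter, pseudocount, depth and tissue pieces. Immunoglobulin G heavy chains are not among the targets tested. Some results are not reported here. Segments within the tumour were used for levels only.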

Additional observations from a re-analysis of the deposited data

Results flagged for a closer look

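For 20 genes with a named role and 2 unnamed gene models, the difference between relapse and naive segments was unlike at the interface and in stroma by the interaction term of limma (interface difference minus stroma difference, log2 scale, 64 segments). Krt5 (1.97) and the desmosome gene Dsp (1.01) were the keratinocyte genes among them. Both passed the filter on interface segments only through relapse, where they are high. Matrix genes were Col3a1 (3.08), Col1a1 (2.76), Col1a2 (2.46) and Postn (2.31), which encodes periostin. Genes of macrophages and antigen presentation were Apoe (3.65), Ctsd (1.80), B2m (2.44), H2-Aa (1.40) and H2-Ab1 (1.26). Fabp4, a fatty acid binding protein of adipocytes, had 1.57 and the ferritin chain Fth1 2.06.

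Abundant genes of general function were Tmsb4x (2.10), Tpi1 (1.5), Eef2 (1.68), Atp5b (1.40) and the ribosomal protein genes Rpl4 (1.52), Rplp1 (1.43) and Rps27 (1.34). The gene models LOC118568634 (-0.79) and Gm52800 (-0.71) were the only interactions called below 0. At overlapping depth no interaction was called for any of these 22 by limma (381 of all targets at an unadjusted p under 0.05).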

How the results depend on the processing

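Against 81 calls at the interface, the count was 572 without the depth covariate, 9 after rescaling to the same total and 509 with that rescaling and no covariate. It was 46 after upper-quartile rescaling, 217 with no filter, 42 with a 25% filter, 14 after thinning, 27 without segments under 1000 counts and 4 with plate as a covariate. Tissue piece as a random block gave 20, also with pieces split at 5000 units. Means per piece gave 0 calls by limma, with the covariate (444 at an unadjusted p under 0.05) or without (249). Segments of overlapping depth gave 9 and the segment tag as a covariate 12. Overlapping depth, rescaling without the covariate, the tag and the 5000-unit pieces were chosen after seeing the data. Leaving out a piece gave 3 calls (without naive piece 5) to 249 (without naive piece 1), with 9 without relapse piece 1 and 158 without naive piece 2.

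The interaction count of 81 became 37 with the 25% filter, 174 with a filter over all segments, 2 after thinning, 53 with the piece as a block and 0 at overlapping depth by limma (381 at an unadjusted p under 0.05). Leaving out a piece gave 2 to 108, with 14 without relapse piece 1 and 10 without relapse piece 3. Piece means put the depth difference at -1.51, not past the threshold.

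Differences changed sign with piece means and depth, 3 against 3, for Actg1 (-0.49), Dsp (-0.47), Fabp5 (-0.91), Krt14 (-0.26), Krt6a (-0.36), Rplp1 (-0.94), Tmsb4x (-0.95) and Tpi1 (-0.445). Acta1 had -2.91 with plate as a covariate, Gm52800 -0.56 without the depth covariate, and the interaction of LOC118568634 was 0.0569 at overlapping depth. The causes were not tested. Krt5 and Krt16 were called higher in 22 of 24 settings, Ighm in 21 and Krt6a in 20. Tests on recovered counts with edgeR and DESeq2 were planned and not run. At the median relapse depth a count of 0 allows 8.40 per 10000, so low targets could not be compared segment by segment.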
